A study of Ictidomys tridecemlineatus with 15 samples.

Results

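Transcription of the nuclear genes for oxidative phosphorylation was followed by GRO-seq in the liver of the 13-lined ground squirrel, a hibernator. The members were chosen by a rule on names, with earlier results of these data known. It took units of the count table with a gene name beginning Nduf, Uqcr, Atp5 or Cox followed by a digit. Units with a name equal to Sdha, Sdhb, Sdhc, Sdhd or Cycs were also taken. This rule found 65 of the 6324 units. Of these, 34 hold 1 gene (of 4705 such units in the table) and 31 are merged units (of 1619), in which genes whose redefined bodies overlap were counted as 1 feature, so that their reads cannot be assigned to either gene. The 34 single-gene units comprise 13 of complex I, 3 of complex II, 2 of complex III, 3 of complex IV, 7 of complex V and 6 assembly factors. The assembly factors (Ndufaf2, Ndufaf4, Ndufaf8, COX10_containing, COX15_like and COX17_like) are caught by the spelling of their names but are not subunits of the finished enzymes, and Ndufa4 is today placed with complex IV although its name counts it here in complex I. Names ending in _like or _containing were assigned by the annotation from similarity, so the identity of those units as the named gene is less certain than for the others. No unit was named Cycs, and Sdha occurred only in a merged unit. The 34 single-gene units lie on 14 chromosomes.

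Oxidative phosphorylation is the part of mitochondrial metabolism in which electrons from NADH and succinate pass through respiratory complexes I to IV to oxygen, and the resulting proton gradient drives ATP synthase, complex V. A small set of the subunits is encoded in mitochondrial DNA and transcribed inside the organelle. All other subunits are encoded in the nucleus, transcribed there and imported as proteins, and hepatocytes, which are rich in mitochondria, transcribe them in large numbers. In a hibernator the whole liver cools during torpor and is rewarmed at each arousal.

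GRO-seq labels RNA that is being elongated when nuclei are isolated, so its reads measure engaged polymerase on a gene and not the amount of mRNA. The libraries were made from liver of laboratory-housed female squirrels, 3 each in SA (homeothermic, before hibernation began), IBA (warm, between torpor bouts), Ent (cooling into torpor) and ET (early in a torpor bout, cold), and 2 in LT (late in a torpor bout, cold). Another LT animal in the sample labels was not used here. The animals carried no genetic change, and states were assigned from body temperature and time. All run-on reactions used frozen tissue and 1 common incubation temperature for every state. Reads counted on gene bodies ranged from 3713883 to 8884763 per library, and the members together took 0.664 to 1.05% of them. A single-gene member had between 42 and 1903 reads in a library. Values below are CPM, read counts brought to a common library size with TMM factors. CPM are relative, so a rise means a larger share of the gene-body reads, not more transcription per nucleus. The ET animals were collected in 1 season, the LT animals in another and the IBA animals in another again. SA and Ent mixed the seasons of LT and IBA, so ET cannot be told apart from its season. SA replicate 1 was the only warm (SA or IBA) library that shared a season with a torpid (ET or LT) one. Differences between torpid and warm libraries, and between IBA and LT, can therefore be told apart from season only in small part.

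Of 8 hepatocyte markers listed, 6 had a single-gene unit (Apob, Cps1, Fgb, Hnf4a, Tf and Ttr), whereas Alb and Apoa1 had none. Their summed level was 9130 to 20159 CPM in SA, 8725 to 13360 in IBA, 7122 to 8184 in Ent, 3688 to 5939 in ET and 4692 to 6987 in LT, so it was lower in every torpid library than in every warm one. Endothelial markers (3 of 6 listed, Kdr, Pecam1 and Stab1) summed to 186 to 241 CPM in SA, 199 to 228 in IBA, 203 to 241 in Ent, 124 to 203 in ET and 135 to 148 in LT. Sox9, the only one of 4 cholangiocyte markers with a unit, was at 25.9 to 40.97 CPM in SA, 16.5 to 35.95 in IBA, 29.8 to 46.1 in Ent, 10.9 to 18.1 in ET and 7.07 to 10.1 in LT. No Kupffer cell, stellate cell or lymphocyte marker listed had a single-gene unit. In ET, the endothelial range overlapped those of SA and IBA, and the Sox9 range overlapped that of IBA. In LT, both lay below every warm library. The part of all these marker values in the results below was not tested. In bulk tissue, fewer cells of a type and less nascent RNA per cell cannot be told apart.

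Of the 28 subunit genes with a unit of their own, 13 rose in the torpid states, 3 fell and the rest did not pass the test. With ET and LT averaged and set against SA and IBA averaged (5 libraries against 6, torpid minus warm), 14 of the 34 single-gene units rose, where 18.3% of all single-gene units rose, and 3 fell, where 18.7% of all fell. A unit was called when its p from the quasi-likelihood F test of edgeR, corrected for all 6324 units after Benjamini and Hochberg, did not exceed 0.001. The median log2 fold change of the 34 was 0.44, against -0.069 for all 4705 single-gene units, and 25 of the 34 lay above 0, against 46.5% of all units. At an adjusted p of 0.05, 20 rose (background 30.1%) and 4 fell (background 35%). In 13 of the 34, every ET and LT library was above every SA and IBA library (background 20.3%), and in 2, Ndufb9 and Atp5g2, every torpid library was below every warm one (background 20.2%). Across all 5 states together, 14 of the 34 differed at 0.001 (background 26.4%) and 22 at 0.05 (background 63.3%). So at the looser threshold the members' share was near that of all units. At 0.001 it was higher, with 50% called against 37% torpid minus warm and 41.2% against 26.4% among the 5 states. In direction, more of the called members rose than fell, whereas with TMM all units split nearly evenly at 0.001. Scaling to uniquely mapped reads in place of TMM shifted the median of all units from -0.069 to 0.16. It left 14 members higher and 1 lower, beside 1203 higher and 603 lower of all 4705 units. All units thus no longer split evenly. The members' median minus that of all units was 0.50 with either scaling. Only SA replicate 1 among the warm libraries shared a season with a torpid one. Torpid minus warm was not fitted with season as a covariate.

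**Figure D1:**
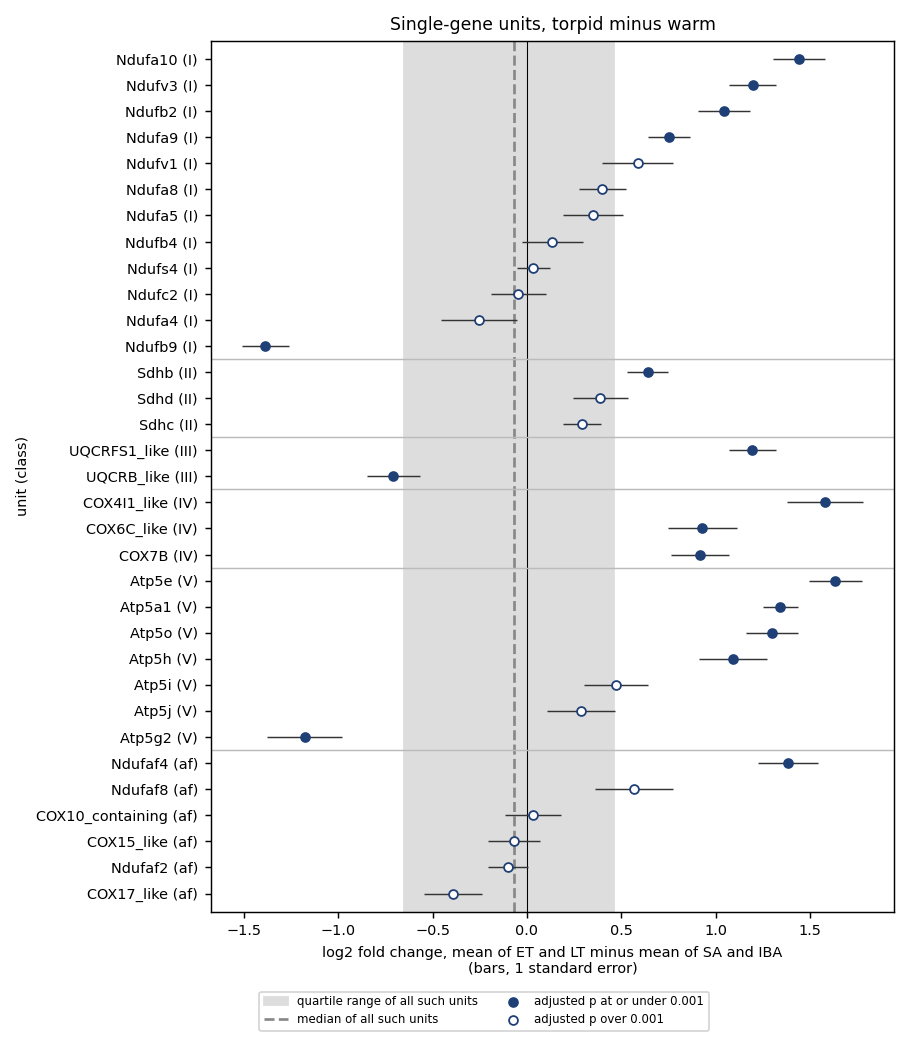
Log2 fold change of the single-gene units between the mean of ET and LT and the mean of SA and IBA (x axis, bars are 1 standard error), grouped by complex. Filled points passed the adjusted p of 0.001, the dashed line is the median of all 4705 single-gene units (-0.069) and the grey band is their quartile range. The 14 filled points of units that rose lie to the right of the band, and Ndufb9, UQCRB_like and Atp5g2 are the 3 to its left.

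Complex V, ATP synthase, had a median log2 fold change of 1.09 over its 7 single-gene units, of which 4 rose (background 18.3%) and 1 fell (background 18.7%). Atp5a1, the alpha subunit of the catalytic F1 head, had the most reads per length of any single-gene member (8.65 CPM per kb over all libraries). Normalized CPM of Atp5a1 were 81.5, 62.99 and 64.9 in SA, 79.6, 81.7 and 94.99 in IBA, 119, 115 and 118 in Ent, 208, 239 and 209 in ET, and 171 and 180.1 in LT. The 3 Ent libraries lay between the warm and the torpid ones without overlap, and the ET libraries were the highest of all. Torpid minus warm it rose by 1.34 ± 0.094 (SE, edgeR adjusted p = 3.03e-07) on the log2 scale, and Atp5a1 was the single-gene member that passed 0.001 from Ent to ET, with 0.898 ± 0.13 (SE, edgeR adjusted p = 0.000656).

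Atp5e, the epsilon subunit of the central stalk, had the highest log2 fold change of the complex, 1.64 ± 0.14 (SE, edgeR adjusted p = 1.22e-06). Normalized CPM of Atp5e were 21.9, 16.8 and 14.1 in SA, 19.04, 17.6 and 19.96 in IBA, 21.3, 32.2 and 26.8 in Ent, 49.2, 44.8 and 50.4 in ET, and 65.5 and 67.2 in LT. Both LT libraries were above the 3 ET libraries, which in turn were above the 3 Ent libraries. Atp5o encodes OSCP, which joins the head to the peripheral stalk. Normalized CPM of Atp5o were 70.6, 66.8 and 48.5 in SA, 55.1, 59.4 and 67.1 in IBA, 73.1, 72.1 and 74.7 in Ent, 159, 115 and 145 in ET, and 193 and 132 in LT. The 3 Ent libraries were just above the highest warm library, and all 5 torpid libraries lay well above them, with a log2 fold change of 1.301 ± 0.14 (SE, edgeR adjusted p = 5.13e-06). Atp5h encodes subunit d of the peripheral stalk, and its normalized CPM were 39.3, 21.2 and 24.2 in SA, 44.3, 41.2 and 47.4 in IBA, 53.3, 74.2 and 45.95 in Ent, 66.9, 77.2 and 50.3 in ET, and 84.2 and 91.5 in LT. SA held its lowest values, Ent overlapped ET, and all torpid libraries were above the warm ones (1.09 ± 0.18 (SE, edgeR adjusted p = 0.000176)). That call was lost when LT replicate 3 was left out (adjusted p = 0.00117).

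Atp5g2 went the other way. It encodes subunit c, the proton-carrying ring protein, which mammals make from several nuclear genes with the same mature product. Normalized CPM of Atp5g2 were 37.8, 22.3 and 22.8 in SA, 41.2, 41.8 and 42.5 in IBA, 42.8, 38.5 and 35.4 in Ent, 12.1, 14.1 and 20.7 in ET, and 11.2 and 17.5 in LT. The IBA and Ent values were close together and above all torpid values, all 3 SA values were lower than those of IBA, and no torpid library reached a warm one. The log2 fold change was -1.18 ± 0.198 (SE, edgeR adjusted p = 0.000198), past the threshold in the main fit but not with uniquely mapped reads as the library size (adjusted p = 0.00117) or without LT replicate 1 (adjusted p = 0.00203). Its paralog Atp5g3 was counted only together with Atf2, and that merged unit rose by 0.89 on the log2 scale. The other units of the complex, Atp5i (subunit e) and Atp5j (coupling factor 6), had log2 fold changes of 0.47 (adjusted p = 0.0278) and 0.29 (adjusted p = 0.184). Atp5i was highest in ET, at 53.4 ± 11.3 CPM (SD, n = 3), and at 29.4 ± 11.8 in LT (SD, n = 2), with 1 LT library below every warm one.

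All 3 single-gene units counted by name in complex IV, cytochrome c oxidase, rose (background 18.3%), with a median log2 fold change of 0.93. Ndufa4, today placed with complex IV but counted here in complex I, was not called torpid minus warm (-0.26, edgeR adjusted p = 0.283). COX4I1_like carries the name of the largest nuclear subunit, a site of regulation by ATP. Normalized CPM of COX4I1_like were 54.95, 47.03 and 50.6 in SA, 36.9, 61.9 and 52.05 in IBA, 62.2, 86.9 and 47.7 in Ent, 216, 113 and 152 in ET, and 121 and 165 in LT. Ent replicates 1 and 2 stood between the warm and torpid ranges, replicate 3 lay within the warm range, and ET was the most variable state. The log2 fold change was 1.58 ± 0.203 (SE, edgeR adjusted p = 2.44e-05). COX7B, a small subunit needed for assembly, had normalized CPM of 40.5, 24.8 and 30.4 in SA, 32.97, 22.99 and 35.9 in IBA, 50.7, 45.96 and 47.9 in Ent, 61.3, 78.95 and 65.3 in ET, and 44.7 and 57.1 in LT. Its torpid libraries were all above its warm ones, but 1 LT value lay below the Ent range. The log2 fold change was 0.92 ± 0.16 (SE, edgeR adjusted p = 0.000222), and the call was lost without LT replicate 3 (adjusted p = 0.00191).

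COX6C_like, another small subunit by name, peaked in ET. Normalized CPM of COX6C_like were 22.2, 18.98 and 23.6 in SA, 25.9, 19.2 and 25.5 in IBA, 33.4, 29.02 and 25.2 in Ent, 41.2, 65.8 and 77.9 in ET, and 23.7 and 36.4 in LT. LT replicate 1 fell within the warm range, so the torpid and warm groups overlapped. Its log2 fold change was 0.93 ± 0.18 (SE, edgeR adjusted p = 0.000716), and the call was lost in 10 of the 14 fits that each left out 1 library, with adjusted p between 0.000139 and 0.00645. It remained without Ent replicate 2, Ent replicate 3, ET replicate 1 or LT replicate 1.

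Complex I, NADH dehydrogenase, was split, with 4 units higher (background 18.3%) and 1 lower (background 18.7%) of 13, and a median of 0.35. The 4 that rose are accessory subunits, as are 11 of the 13 units, the 1 that fell among them. Ndufa10, with the largest rise, had normalized CPM of 37.8, 33.8 and 27.3 in SA, 25.6, 28.8 and 27.5 in IBA, 48.8, 46.1 and 36.3 in Ent, 97.9, 65.4 and 74.1 in ET, and 79.8 and 87.8 in LT. Its Ent libraries overlapped SA through Ent replicate 3 and its torpid libraries stood apart above, with a log2 fold change of 1.44 ± 0.14 (SE, edgeR adjusted p = 2.21e-06). Ndufv3 belongs to the NADH-oxidizing arm, and its normalized CPM were 35.9, 28.9 and 35.4 in SA, 19.6, 28.01 and 28.1 in IBA, 48.7, 53.5 and 41.4 in Ent, 87.9, 73.8 and 79.3 in ET, and 53.8 and 57.1 in LT. It was lowest in IBA, intermediate in Ent and highest in ET, with 1.196 ± 0.13 (SE, edgeR adjusted p = 4.79e-06) torpid minus warm. Ndufb2, in the membrane arm, had normalized CPM of 21.5, 19.5 and 19.01 in SA, 17.3, 15.3 and 18.7 in IBA, 26.005, 35.8 and 26.98 in Ent, 48.4, 52.8 and 52.3 in ET, and 23.1 and 33.9 in LT. The LT values were well below those of ET and overlapped those of Ent, and the log2 fold change was 1.05 ± 0.14 (SE, edgeR adjusted p = 2.97e-05). Ndufa9, next to the ubiquinone site, had normalized CPM of 44.1, 35.8 and 39.1 in SA, 50.02, 34.3 and 46.1 in IBA, 57.4, 55.3 and 64.3 in Ent, 68.5, 76.8 and 71.02 in ET, and 68.6 and 67.02 in LT. Ent lay between the warm and torpid ranges without overlap, and the log2 fold change was 0.75 ± 0.11 (SE, edgeR adjusted p = 8.15e-05).

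Ndufb9, an accessory subunit of the membrane arm, had the lowest log2 fold change among all single-gene members. Normalized CPM of Ndufb9 were 73.3, 60.2 and 54.7 in SA, 48.6, 47.2 and 53.2 in IBA, 61.5, 45.8 and 46.8 in Ent, 27.4, 24.6 and 26.8 in ET, and 16.5 and 18.1 in LT. Warm and Ent values overlapped, ET values were all below them and LT values were lower still. The log2 fold change was -1.39 ± 0.12 (SE, edgeR adjusted p = 1.57e-06). It held under every alternative tried for it, and with season as a covariate Ndufb9 was the only single-gene member still past 0.001 from IBA to LT (-1.80 ± 0.23 SE, adjusted p = 0.000302).

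Ndufa4 had a shape of its own. Normalized CPM of Ndufa4 were 29.4, 21.2 and 22.3 in SA, 25.6, 21.3 and 28.6 in IBA, 39.998, 42.6 and 45.4 in Ent, 29.7, 57.4 and 34.95 in ET, and 7.71 and 13.4 in LT. The 3 Ent libraries were above all warm libraries, ET replicate 2 was the highest value of all, and both LT libraries were below every other library. It differed among the 5 states (edgeR adjusted p = 0.000963) but not torpid minus warm, where ET and LT were averaged (-0.26 ± 0.202 (SE, edgeR adjusted p = 0.283)). From ET to LT its log2 fold change was -1.94 ± 0.32 (SE, edgeR adjusted p = 0.0379), which misses 0.001 and passes 0.05. Ndufc2, the complex I unit with the most reads per length (5.55 CPM per kb), ranged from 59.4 to 116 CPM with no call in any comparison (-0.047 (adjusted p = 0.792) torpid minus warm), and it is the only single-gene member with another unit on its strand within 20000 nt upstream (15029 nt). The core subunit gene Ndufv1, whose product takes electrons from NADH, was at 0.59 (adjusted p = 0.0149). The other accessory units, Ndufa5, Ndufa8, Ndufb4 and Ndufs4, had log2 fold changes of 0.35, 0.400, 0.14 and 0.034. Ndufs4 was nearly level, with 189 to 247 CPM over the 14 libraries.

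**Figure D2:**
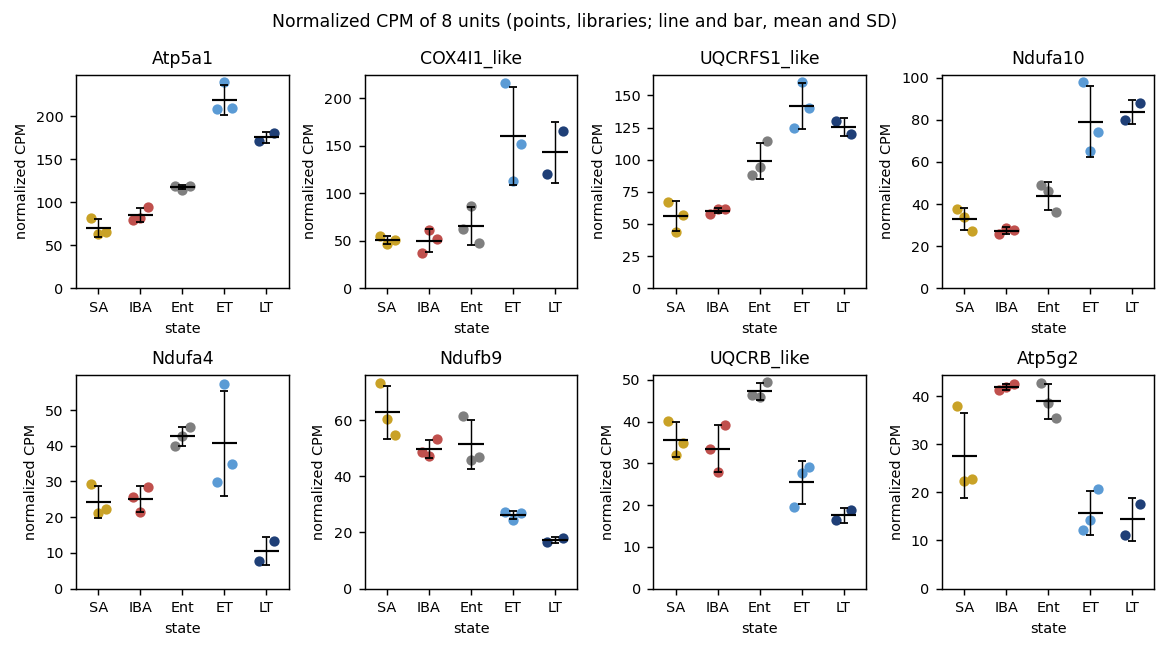
Normalized CPM by state for 8 single-gene units (y axis from 0, points are libraries, lines and bars are mean and SD, n = 3 per state and 2 in LT). The upper row shows 4 units that were higher in ET and LT, and the lower row shows Ndufa4, lowest in LT, and the 3 units that fell in the torpid states.

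In complex II, succinate dehydrogenase, the iron-sulfur subunit gene Sdhb had the most reads per length, 6.33 CPM per kb. Normalized CPM of Sdhb were 199.8, 132 and 189 in SA, 150.1, 161 and 164 in IBA, 228, 216 and 187 in Ent, 230.2, 246 and 253 in ET, and 288 and 264 in LT. All torpid libraries were above all warm ones, the lowest of them just above the highest Ent library, and the log2 fold change was 0.64 ± 0.11 (SE, edgeR adjusted p = 0.000228). Without LT replicate 1 its adjusted p was 0.00178. The membrane anchor genes Sdhc and Sdhd had log2 fold changes of 0.29 (adjusted p = 0.0228) and 0.39 (adjusted p = 0.0332). For Sdhc the warm range of 155 to 217 CPM overlapped the torpid range of 208 to 244 CPM. In complex III, the cytochrome bc1 complex, the 2 single-gene units moved in opposite directions. UQCRFS1_like, named for the Rieske iron-sulfur protein, had normalized CPM of 67.2, 43.7 and 57.3 in SA, 57.97, 61.5 and 61.5 in IBA, 88.05, 94.3 and 115 in Ent, 125, 160.5 and 140.1 in ET, and 130.4 and 120.3 in LT. The Ent libraries lay above the warm and below the torpid ones, with a log2 fold change of 1.195 ± 0.12 (SE, edgeR adjusted p = 4.2e-06).

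UQCRB_like, named for a subunit that helps to bind ubiquinone, had normalized CPM of 40.2, 31.9 and 34.8 in SA, 33.5, 27.8 and 39.1 in IBA, 46.5, 45.8 and 49.5 in Ent, 19.6, 27.7 and 29.2 in ET, and 16.3 and 18.9 in LT. Ent was above the other states and LT below them, and ET replicate 3 lay within the range of IBA. The log2 fold change was -0.71 ± 0.14 (SE, edgeR adjusted p = 0.000815). This call was the least stable among the members, since it was lost in 12 of 14 fits that each left out 1 library (kept without SA replicate 2 or IBA replicate 2, adjusted p 0.000731 to 0.00633 over the 14) and with upper-quartile scaling, total counts or uniquely mapped reads (adjusted p 0.0014, 0.00426 and 0.0166).

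The 6 assembly factors had a median of -0.019, and 1 of them rose (background 18.3%) and none fell (background 18.7%). At 0.05, 2 were higher (background 30.1%) and 1 lower (background 35%). Ndufaf4, which acts in complex I assembly, had normalized CPM of 12.3, 15.95 and 18.5 in SA, 11.9, 9.197 and 9.898 in IBA, 21.5, 17.7 and 21.3 in Ent, 37.1, 46.9 and 32.1 in ET, and 25.1 and 31.96 in LT. IBA held the lowest values and all torpid libraries lay above all warm and Ent libraries, with a log2 fold change of 1.38 ± 0.16 (SE, edgeR adjusted p = 9.19e-06). Ndufaf8 and Ndufaf2, also for complex I, were at 0.57 (adjusted p = 0.0287) and -0.099 (adjusted p = 0.425). COX10_containing and COX15_like, named for enzymes of heme A synthesis, were at 0.031 and -0.069, and COX17_like, named for a copper chaperone, at -0.39 (adjusted p = 0.0411). Whether the 28 subunits and the 6 assembly factors differ was not tested.

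**Figure D3:**
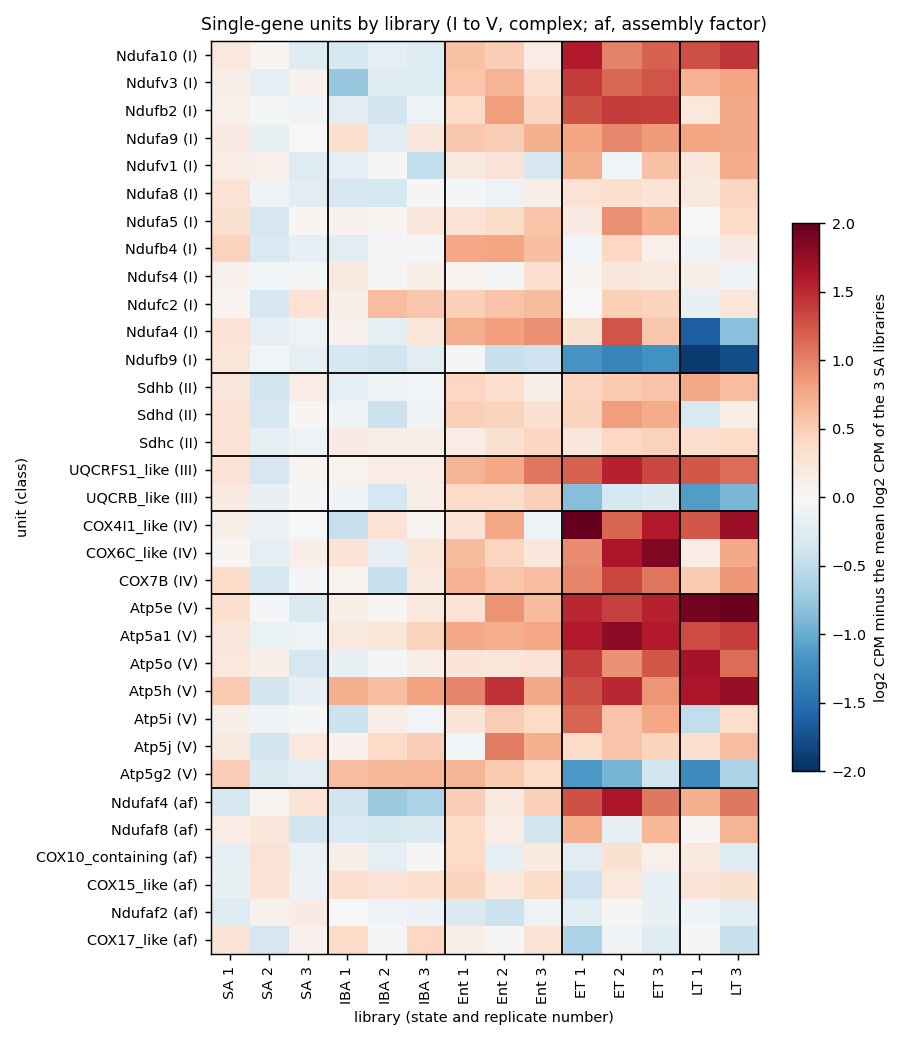
Log2 CPM of the single-gene units (rows, grouped by complex) in the 14 libraries (columns, grouped by state), with the mean of the 3 SA libraries set to 0. Red is above and blue below SA. ET and LT are redder than SA and IBA in the rows of Ndufa10, COX4I1_like, Atp5e, Atp5a1 and Atp5o, Ndufb9 and Atp5g2 are blue in ET and LT, and Ndufa4 is blue in LT.

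From SA to IBA, no single-gene member passed 0.001 in edgeR (background 0.0213% higher and 0% lower), 5 of 34 had an unadjusted p under 0.05, DESeq2 and limma-voom called 0 each, and the members had a median change of -0.027 on the log2 scale. From IBA to Ent, 31 of 34 log2 fold changes were above 0 (47.9% of all units) with a median of 0.38 against -0.023, yet edgeR again called 0 at 0.001 (background 0.0213% in each direction), limma-voom 0 and DESeq2 3, and 14 had an unadjusted p under 0.05. At an adjusted p of 0.05, 7 members were higher in Ent (background 8.57%), namely Ndufaf4, Ndufa10, Ndufb2, Ndufb4, Ndufv3, UQCRFS1_like and Atp5a1. Ndufv3 had the lowest adjusted p of these, at 0.92 ± 0.17 (SE, edgeR adjusted p = 0.00554). Ndufb4, an accessory subunit, was at 26.4 ± 1.93 CPM in Ent (SD, n = 3) against 14.9 ± 1.06 in IBA and 17.9 ± 3.03 in ET, and the 3 Ent libraries were above all other libraries.

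From Ent to ET, Atp5a1 rose at 0.001 (background 1.13% higher) and no member fell (background 1.17% lower), with 16 of 34 at an unadjusted p under 0.05. The call on Atp5a1 was lost when any 1 of the IBA, Ent, ET or LT libraries was left out, and with the replicate number as a block (0 calls in each). At 0.05, 10 were higher (background 15.4%) and 3 lower (background 13.8%), the 3 being Ndufb9 (-0.97 (adjusted p = 0.00134)), UQCRB_like (-0.89 (adjusted p = 0.00436)) and Atp5g2 (-1.31 (adjusted p = 0.00312)). Among the members above 0 in this step, COX4I1_like had the largest log2 fold change, 1.29 ± 0.27 (SE, edgeR adjusted p = 0.0046). DESeq2 called 12 members here at 0.001, 9 higher and 3 lower, and limma-voom called 1. The backgrounds given for each step are those of edgeR and do not apply to the DESeq2 counts. Torpid minus warm, DESeq2 called 1121 of all single-gene units higher and 1178 lower, against 859 and 881 in edgeR. From ET to LT, edgeR called no member at 0.001 in either direction (background 0% higher and 0% lower), nor did limma-voom, and DESeq2 called 1, lower in LT. An unadjusted p under 0.05 was found for 11 of 34, and 24 of 34 log2 fold changes were below 0, with a median of -0.13 against -0.016. At 0.05, 1 was lower, Ndufa4 (background 0.34%).

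From IBA to LT, 7 of 34 were higher (background 9.46%) and 1 lower (background 8.18%), with a median of 0.29 against -0.088. The 7 were Atp5e, Atp5a1, Atp5o, Ndufa10, Ndufv3, UQCRFS1_like and Ndufaf4, and Ndufb9 was the lower one. At 0.05, 15 were higher (background 24.1%) and 5 lower (background 26.6%). This count rested on the LT pair: 2 were called without LT replicate 1, 4 without LT replicate 3, 5 without IBA replicate 2 and 5 without IBA replicate 3. The shares of all units called in those leave-out fits are not given here. With season as a covariate, 1 of the 34 was called at 0.001, beside 272 of all 4705 single-gene units. At 0.05, 11 of the 34 were called, beside 1691 of the 4705. Neither share of the members exceeded that of all units. The median in the season fit was 0.20 against -0.049, and 24 of 34 were above 0. The comparisons share libraries, so their counts are not independent of each other. When the 2 LT libraries were set against the single SA library of their season, the median log2 difference was 0.25 over the members and -0.029 over all single-gene units, with 22 of 34 members above 0 (48.6% of all units), and this difference was not tested.

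By state mean, 15 of the 34 members were highest in ET, 8 in Ent, 7 in LT, 2 in SA and 2 in IBA, where all single-gene units split as 20.1%, 9.99%, 20.7%, 24.3% and 24.9%. The 7 highest in LT were Atp5e, Atp5h, Atp5o, Ndufa10, Ndufa8, Ndufv1 and Sdhb. Highest in SA were Ndufb9 and Ndufaf2, and highest in IBA were Atp5g2 and COX17_like. The lowest mean fell in IBA for 15 members and in SA for 11. In each library, the median log2 CPM of the 7 complex V units relative to SA was 0.13 to 0.45 in IBA, 0.29 to 0.72 in Ent, 0.88 to 1.28 in ET and 1.11 to 1.30 in LT. For the 3 complex IV units it was 0.23 to 0.63 in Ent, 0.96 to 1.57 in ET and 0.51 to 0.86 in LT, so both LT libraries were below all ET libraries. For the 13 complex I units it was 0.31 to 0.48 in Ent, 0.29 to 0.53 in ET and 0.12 to 0.38 in LT. Over all 4705 single-gene units the same median stayed between -0.065 and 0.025, a level near 0 that is largely set by the TMM scaling.

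**Figure D4:**
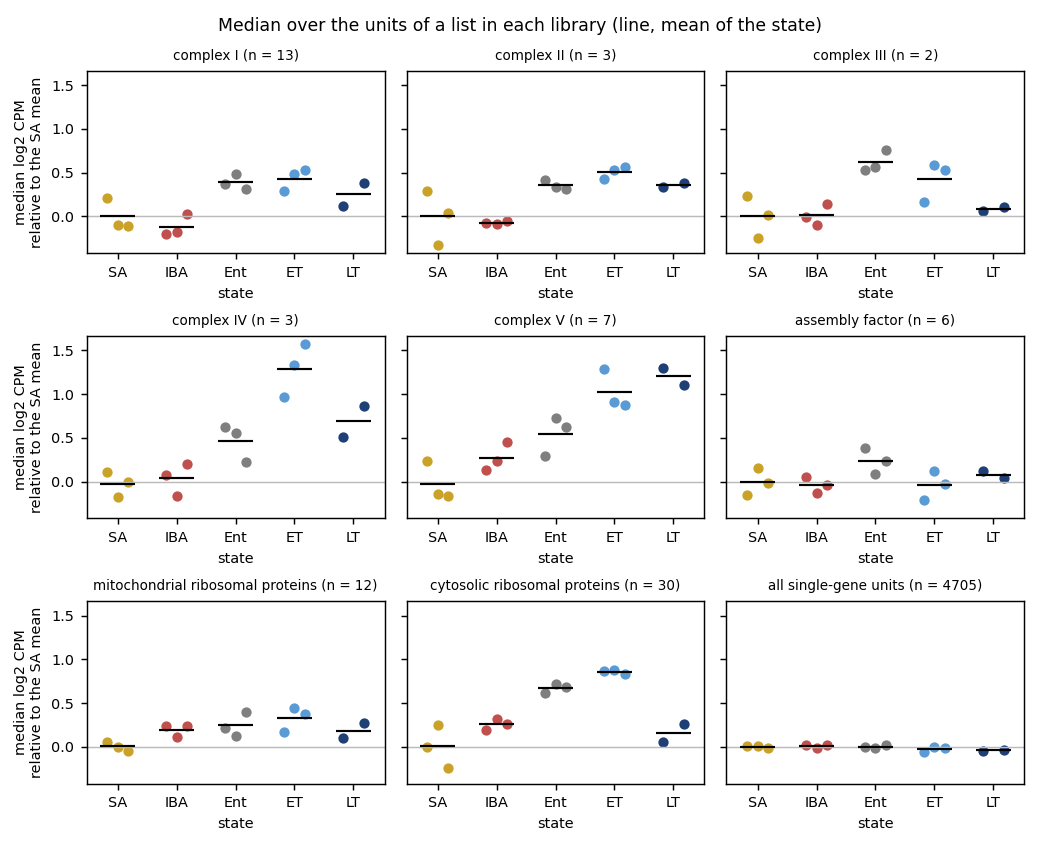
Median log2 CPM over the units of a list in each library, relative to the SA mean (y axis), by state (points are libraries, lines are state means). Complex V stays high in LT, and complex IV and cytosolic ribosomal proteins are lower in LT than in ET. All single-gene units lie near 0 throughout, which is largely set by the TMM scaling.

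Pairs of members varied together only in part. Over the 14 libraries, the median Pearson correlation of log2 CPM over the 561 pairs of single-gene members was 0.33 (quartiles -0.17 and 0.65), against 0.0038 over all pairs of single-gene units. After subtraction of state means the median was 0.19, against 0.0043. The points share libraries and their scaling, and the values are a description. The members are short, with a median unit length of 13819 nt against 36217 nt for all single-gene units. Within the shortest quartile of units (under 18660 nt), which holds 24 of the 34, the median log2 fold change torpid minus warm was 0.58 for members and 0.012 for all units, and in the second quartile 0.40 for 5 members and 0.042 for all. In the longest quartile it was 0.031 for 3 members (COX10_containing, Ndufaf2 and Ndufs4) and -0.21 for all. Among members the correlation of fold change with log2 length was -0.087 (Pearson, n = 34 genes), and with log2 mean CPM 0.11.

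None of the 17 single-gene members called torpid minus warm had a unit on the same strand within 20000 nt upstream. The nearest was Rnf139 at 21745 nt from Ndufb9. Of the 17 not called, 1 had such a unit. Only units of the count table were searched, and overlapping genes had already been merged, so closer genes could be missed. The share over all single-gene units is not given here. On chromosome 6, UQCRB_like (38874947 to 38882714, build HiC_Itri_2) fell while COX6C_like, 3020160 nt away on the same strand (35844144 to 35854787), rose. Ndufb9 lies on the same chromosome at 15686004 to 15697049. Atp5a1 is on chromosome 13, 41416265 to 41431338, COX4I1_like on chromosome 16, 26928286 to 26941244, and Atp5g2 on chromosome 4, 62246884 to 62257738.

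The 31 merged units are given apart, because other genes contribute to their counts. Among them 14 rose torpid minus warm (background for merged units 19.6%) and 2 fell (background 14.5%), and their median was 0.39 against 0.013 for all 1619. In 14 every torpid library was above every warm one (background 23.2%), and in 2 every one was below (background 17.4%). Across the 5 states 11 of 31 differed (background 22.8%). Fam219b:COX5A had the lowest adjusted p, and holds COX5A, a matrix-side subunit of complex IV. Its normalized CPM were 169.7, 139 and 144 in SA, 134, 129.8 and 148 in IBA, 230.2, 222 and 237 in Ent, 357, 424 and 398 in ET, and 347 and 373 in LT. Ent lay between the warm and torpid ranges without overlap, with a log2 fold change of 1.39 ± 0.086 (SE, edgeR adjusted p = 2.11e-07). COX7A2:G37265 and snoZ39_ENSSTOG00000028029:COX7C_like, the other complex IV units that rose, were at 1.23 (adjusted p = 4.99e-06) and 1.04 (adjusted p = 0.000353). Units with COX6A1 and COX8A_like were at -0.12 and -0.55.

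Of the complex V merged units, those with Atp5f1 (subunit b), Atp5l (subunit g), Atp5j2 (subunit f), Atp5g3 (subunit c) and Atp5c1 (gamma) rose, at 1.08, 1.02, 0.95, 0.89 and 0.42. Those with Atp5b (beta) and Atp5d (delta), each merged with several other genes, were at -0.006 (adjusted p = 0.962) and -0.37 (adjusted p = 0.118). For complex I, 4 of 11 merged units rose (background for merged units 19.6%). Ndufc1:Mgarp, which joins an accessory subunit with a gene for a mitochondrial membrane protein, had normalized CPM of 73.99, 66.01 and 63.8 in SA, 61.1, 55.4 and 63.1 in IBA, 72.2, 73.8 and 92.4 in Ent, 115, 124 and 126 in ET, and 138 and 136 in LT. Its torpid libraries stood above all others (1.02 ± 0.094 (SE, edgeR adjusted p = 1.87e-06)). The unit with Ndufs7 and Topors:Ndufb6 were at 0.73 (adjusted p = 0.000668) and 0.44 (adjusted p = 0.000266). DESeq2 and the uniquely mapped library size also called Fam180b:Ndufs3:Ptpmt1 (adjusted p = 0.000293 and 0.000203) and Ndufv2:Ankrd12 (7.49e-06 and 0.000131), and total counts called the latter (0.000437). The 7 not called by edgeR with TMM ran from -0.69 in Ndufs8:Aldh3b1 to 0.42 in Fam180b:Ndufs3:Ptpmt1, with Ndufs1:U6_ENSSTOG00000024632 at -0.059, Ndufa7:Cd320 at -0.081, Yjefn3:Ndufa13 at 0.26, G40223:Ndufab1 at 0.28 and Ndufv2:Ankrd12 at 0.39. Calls on the units with Ndufs7, Atp5c1, COX7C_like and Ndufb6 were lost in 10, 12, 6 and 3 of 14 fits that each left out 1 library, and those on the units with Sdha and UQCRQ in 1 each (without LT replicate 1).

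Pdcd6:Sdha:G3380, with the flavoprotein subunit of complex II, was at 0.72 ± 0.12 (SE, edgeR adjusted p = 0.000181), close to the value for Sdhb given above. In complex III, G16984:UQCR10 rose by 1.497 on the log2 scale, and Col7a1:UQCRC1 and LOC101976897:UQCRC2, with the large core subunits, were at 0.34 (adjusted p = 0.0224) and 0.24 (adjusted p = 0.0453). G1863:Leap2:UQCRQ fell. Its normalized CPM were 529, 208 and 434 in SA, 340.4, 422 and 403 in IBA, 569, 248 and 651 in Ent, 76.6, 126 and 127 in ET, and 87.4 and 101 in LT. Every torpid library was below every warm and Ent library, and SA and Ent varied most between libraries. The log2 fold change was -1.94 ± 0.29 (SE, edgeR adjusted p = 7.84e-05), and Leap2, a gene for a secreted liver peptide, shares the count. PPIAP46_like:Ndufaf6 was the other unit that fell. Its normalized CPM were 50.4, 29.98 and 24.8 in SA, 103, 57.3 and 63.1 in IBA, 43.4, 25.7 and 35.7 in Ent, 15.6, 20.4 and 22.3 in ET, and 11.9 and 11.8 in LT. IBA held the highest values and LT the lowest, with -1.74 ± 0.24 (SE, edgeR adjusted p = 3.98e-05) torpid minus warm. Ankrd17:COX18_like and the unit with COX14 were at 0.18 and 0.22.

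**Figure D5:**
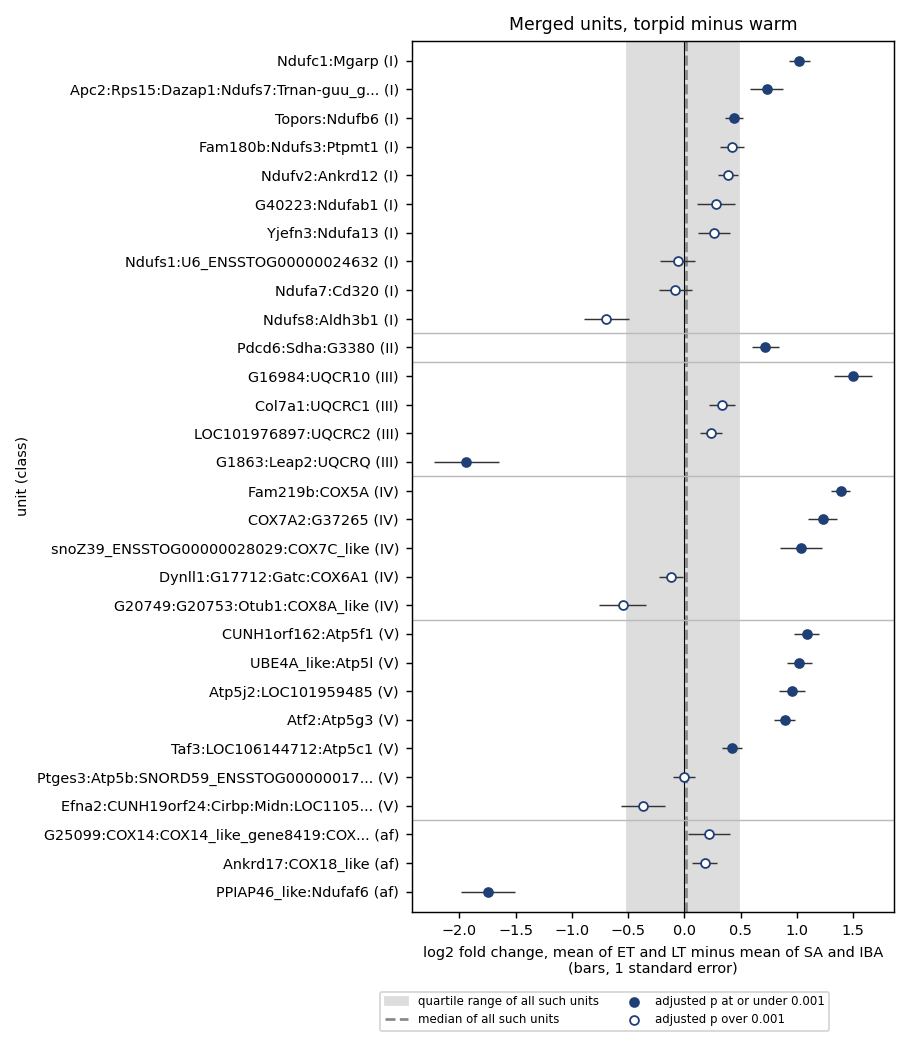
Log2 fold change torpid minus warm of the merged units (x axis, bars are 1 standard error), grouped by the complex of the member they hold. Filled points passed the adjusted p of 0.001, the dashed line is the median of all 1619 merged units (0.013) and the grey band is their quartile range. The 2 filled points on the left are the units with UQCRQ and Ndufaf6.

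Genes that work beside the complexes were counted from lists by the same test, and each count is to be read beside the 18.3% of all single-gene units that rose and the 18.7% that fell. Of 12 subunits and assembly factors outside the name rule that have a single-gene unit (of 47 listed), 4 rose and 0 fell torpid minus warm, at a median of 0.38. Ecsit (complex I assembly) was at 1.12 (adjusted p = 2.08e-05), SCO1_like (copper delivery to complex IV) at 0.95 (adjusted p = 2.06e-05) and Atpaf1 (F1 assembly) at 1.23 (adjusted p = 7.25e-05). Of 23 units for pyruvate dehydrogenase and the TCA cycle, which supply NADH and succinate (28 listed), 9 rose and 2 fell, at a median of 0.64. Pdhb, Idh3a, Mdh2 and Pdhx were at 1.47, 1.29, 1.26 and 0.97, whereas Ogdh, the first component of the oxoglutarate dehydrogenase complex, fell by 1.88. Of 14 units for electron entry, coenzyme Q and inner membrane exchange (34 listed), 5 rose and 2 fell, at a median of 0.43. The ADP/ATP carriers Slc25a4 and Slc25a5 were at 2.47 (adjusted p = 1.9e-07) and 1.59 (adjusted p = 3.77e-05), Coq5 (coenzyme Q synthesis) at 1.24, the outer membrane channels Vdac1 and Vdac2 at 0.697 and 0.701, and Sqor, which feeds electrons from sulfide to coenzyme Q, at -1.55 (adjusted p = 5.3e-06).

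Of 12 regulators of mitochondrial gene expression with a single-gene unit (26 listed), 3 rose and 3 fell, at a median of 0.41, so both shares were near those of all single-gene units (18.3% and 18.7%). Those called among the 5 states were Mterf2 (2.69 (adjusted p = 1.89e-07)), Tefm, the mitochondrial transcription elongation factor (-2.22 (adjusted p = 2.1e-06)), and Tfb1m (-0.91 (adjusted p = 0.000234)). As parts of other large complexes, 12 mitochondrial ribosomal protein units had 5 higher and 1 lower at a median of 0.13, and 30 cytosolic ribosomal protein units had 9 higher and 2 lower at a median of 0.32, again beside 18.3% higher and 18.7% lower of all. The cytosolic ribosomal protein units had a median of -0.50 from ET to LT, with 6 of 30 lower at 0.05. None of these lists was tested against the members.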

How the data were processed

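Liver GRO-seq libraries of 14 animals were analyzed. Per the labels and the study's methods, the authors trimmed reads with cutadapt, aligned them to the HiC_Itri_2 genome with BWA, extended gene bodies to the farthest 3′ end that fstitch called in any state, merged overlapping genes, left out the first 500 nt, and counted uniquely aligned reads with featureCounts (versions not given in the sources used here). Reads beyond an annotated 3′ end can therefore enter a unit's count. The deposited values are raw counts per unit. LT replicate 2 has no column and was not used here. The study library table gave uniquely mapped reads and collection dates, used only for 1 scaling alternative and for season.

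Counts of all 6324 units and 14 libraries were scaled by TMM and fitted in edgeR 4.0.16 (R 4.3.3) with 1 quasi-likelihood model of the 5 states. The Benjamini-Hochberg correction covered every unit of the table, and calls were made at 0.001. Torpid minus warm is the mean of ET and LT minus the mean of SA and IBA. SE is the log2 fold change divided by the square root of F. Log2 CPM used a prior count of 2. Precision is limited by 2 or 3 libraries per state, each from its own animal. Within states, libraries differed by more than counting noise.

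The members and lists were chosen with earlier results of these data known. Named are members at or under 0.001 in any comparison (up to 20), the units of each complex with the most reads per length and the highest and lowest torpid minus warm change, all merged units, and up to 6 genes per other list called among the 5 states. The other members are given with their values, except a few genes, which enter the counts but are not reported here by name or in the figures. The replicate numbers were checked and do not pair the animals.

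Other settings tried were other scalings, DESeq2 1.42.0, limma-voom from limma 3.58.1, a minimum of 10 counts, single-gene units alone, an adjusted p of 0.05, a replicate block, a season covariate and each library left out. Figures used matplotlib 3.10.9. The steps were tested on simulated data.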

Additional observations from a re-analysis of the deposited data

How the results depend on the processing

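Counts below are of the 34 single-gene members called at an adjusted p of 0.001 unless stated. With DESeq2 in place of edgeR, IBA to Ent gave 3 calls against 0, Ent to ET gave 12 against 1, ET to LT gave 1 against 0, IBA to LT gave 14 against 8, and the counts among the 5 states (20 against 14) and torpid minus warm (17 against 17) stayed within 1.5 times. The share of all units that DESeq2 called in these single steps is not given here, so its counts have no background. At an adjusted p of 0.05, edgeR called 22 among the 5 states, 7 for IBA to Ent, 13 for Ent to ET, 1 for ET to LT and 20 for IBA to LT. With the season as a covariate 1 was called from IBA to LT, beside 272 of all 4705 single-gene units, and comparisons with ET could not be fitted. Without the ET libraries 7 were called among the other 4 states, and 7 were called for LT minus SA alone against 17 torpid minus warm. The share of all units called is not given here for either, so these counts have no background. These 2 fits, and the comparison within a season, were added after the data were seen. The cause of these differences was not tested.

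With replicate number as a block, 9 were called among the 5 states, 0 from Ent to ET and 5 from IBA to LT. Torpid minus warm gave 15, beside 747 higher and 780 lower of all 4705 single-gene units. In the main fit 859 of all units were higher and 881 lower. For the other comparisons with the block, the share of all units is not given here. The replicate numbers do not pair the animals. Same-numbered libraries of different states had correlations of deviations between -0.26 and 0.23 (median 0.034, 6 of 26 over 0.1), so the samples share only a number.

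Leaving out each library in turn gave 10 to 13 calls among the 5 states, 0 to 1 from Ent to ET (lost without any of the IBA, Ent, ET or LT libraries), 2 to 9 from IBA to LT, 13 to 16 torpid minus warm, and 0 throughout in the SA to IBA, IBA to Ent and ET to LT steps. Calls over all 4705 single-gene units also changed between these fits. Without IBA replicate 3, torpid minus warm had 722 of all units higher and 739 lower, against 859 and 881 in the main fit. For the other comparisons, the shares of all units are not given here. Over the members, the median log2 fold change torpid minus warm ranged from 0.31 (without LT replicate 3) to 0.55 (without LT replicate 1). It was 0.66 with uniquely mapped reads as the library size and 0.25 in LT against the SA library of the same season, both further from 0.44 than the SD between libraries of a state (0.14). The 23 alternatives tried for torpid minus warm did not include the season covariate, with which comparisons with ET could not be fitted. No named unit that was called reversed its direction under any of the 23. Of the 17 called single-gene members, 11 kept their call under all of them. The exceptions were Atp5g2, Atp5h, COX6C_like, COX7B, Sdhb and UQCRB_like, and COX6C_like also lost its call with limma-voom (adjusted p = 0.00262) and the replicate block (0.00165), as UQCRB_like did with the block (0.00131). Depth of at least 42 reads per member and library limits the smallest members most.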
